A study of Drosophila melanogaster with 48 samples.

Results

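The *MtnA* deletion line C2D3 was compared with the nondeletion line C2N1, its nearly isogenic partner from the C2 background. The comparison rests on 8 of the 48 libraries of the study: 4 of C2D3 and 4 of C2N1, and in each line 2 libraries of control flies and 2 of flies exposed to oxidative stress. The libraries were chosen by their labelled line alone, and the treatment entered the fit as a covariate, so that the line effect is the difference C2D3 minus C2N1 that control and stress libraries have in common. Head expression was measured in males of 12 *Drosophila melanogaster* lines from Germany, Cyprus, Malaysia and Zambia, with and without menadione sodium bisulfite (MSB), a compound that generates superoxide. C2D3 is homozygous for a deletion of 49 bp in the 3′ untranslated region of *MtnA* and C2N1 for the allele without it. Both go back to 1 isofemale line from Nicosia, Cyprus, in which the deletion segregated and from which single pairs were inbred, so that each genotype is represented by 1 inbred line and residual differences elsewhere in the genome come with it. Stress flies spent 24 h on food with 75 mM MSB and control flies 24 h on food without it. Flies were males aged 5 to 7 days, and each library was made from 60 pooled whole heads. The methods call the 2 libraries of a group biological replicates, but the labels do not say which culture each came from, so the p-values measure the spread between these pools.

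Metallothioneins are short, cysteine-rich proteins that bind copper and zinc and can scavenge reactive oxygen species, and MtnA is the main one in the fly. The 3′ untranslated region of a transcript holds binding sites for microRNAs and RNA-binding proteins and can set its stability. A nearly isogenic pair is meant to isolate a single locus, and the question of the comparison is which genes differ in expression between heads with and without the deletion.

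The 8 libraries held 29414147 to 47067671 counts. Of 13957 genes in the table, 10778 passed the filter on low counts and were tested. Replicate libraries correlated at r = 0.982 to 0.991 over log2 CPM (counts per 1000000 counts of the library), and the pair of C2N1 controls was the least alike. In a principal component analysis of the 500 most variable genes, the first component (74.1% of the variance) separated the treatments, and the second (11.1%) separated the lines, with scores of 9.25 to 13.3 in C2D3 and of -16.3 to -7.63 in C2N1. The 4 stress libraries were all nearer to the controls of their own line in 25 line-specific genes. Photoreceptor markers summed to 66300 to 74900 CPM in C2D3 and to 63300 to 74500 in C2N1. Accessory gland markers did not pass 3.18 CPM and testis markers 6.39 CPM in any library. Markers of female fat body and ovary summed to 54.4 to 73.7 CPM in C2D3 and to 50.6 to 70.9 CPM in C2N1. Most of that sum was *Yp3*, at 46.5 to 66.6 CPM over the 8 libraries.

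*MtnA* itself did not differ between the lines by more than the spread of the libraries. *MtnA* (FBgn0002868) lies on 3R:9783407-9784370, minus strand, in the annotation BDGP6.54. It stood at 289 and 226 CPM in the C2D3 controls and at 359 and 246 CPM in the C2N1 controls. In the stress libraries it stood at 580.3 and 408 CPM in C2D3 and at 377 and 598 CPM in C2N1. The lines overlapped in both treatments. The line effect was -0.11 ± 0.20 (log2 difference ± SE, adjusted p = 0.926 in edgeR's quasi-likelihood test), and its sign turned to 0.021 without C2N1 control replicate 1 and to 0.0097 without C2N1 stress replicate 2. The other metallothioneins that could be tested did not pass either. *MtnD* had a line effect of 0.15 ± 0.25 (adjusted p = 0.916), *MtnE* of -0.14 ± 0.48 (0.97) and *MtnF* of -0.18 ± 0.16 (0.833). *MtnB* had 10 counts and *MtnC* 0 counts in all 8 libraries together, too few to test. In *MtnD* and *MtnE* the values followed the treatment: *MtnE* was at 0.278 to 1.29 CPM in the 4 control libraries and at 3.34 to 8.65 CPM in the 4 stress libraries.

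**Figure D1:**
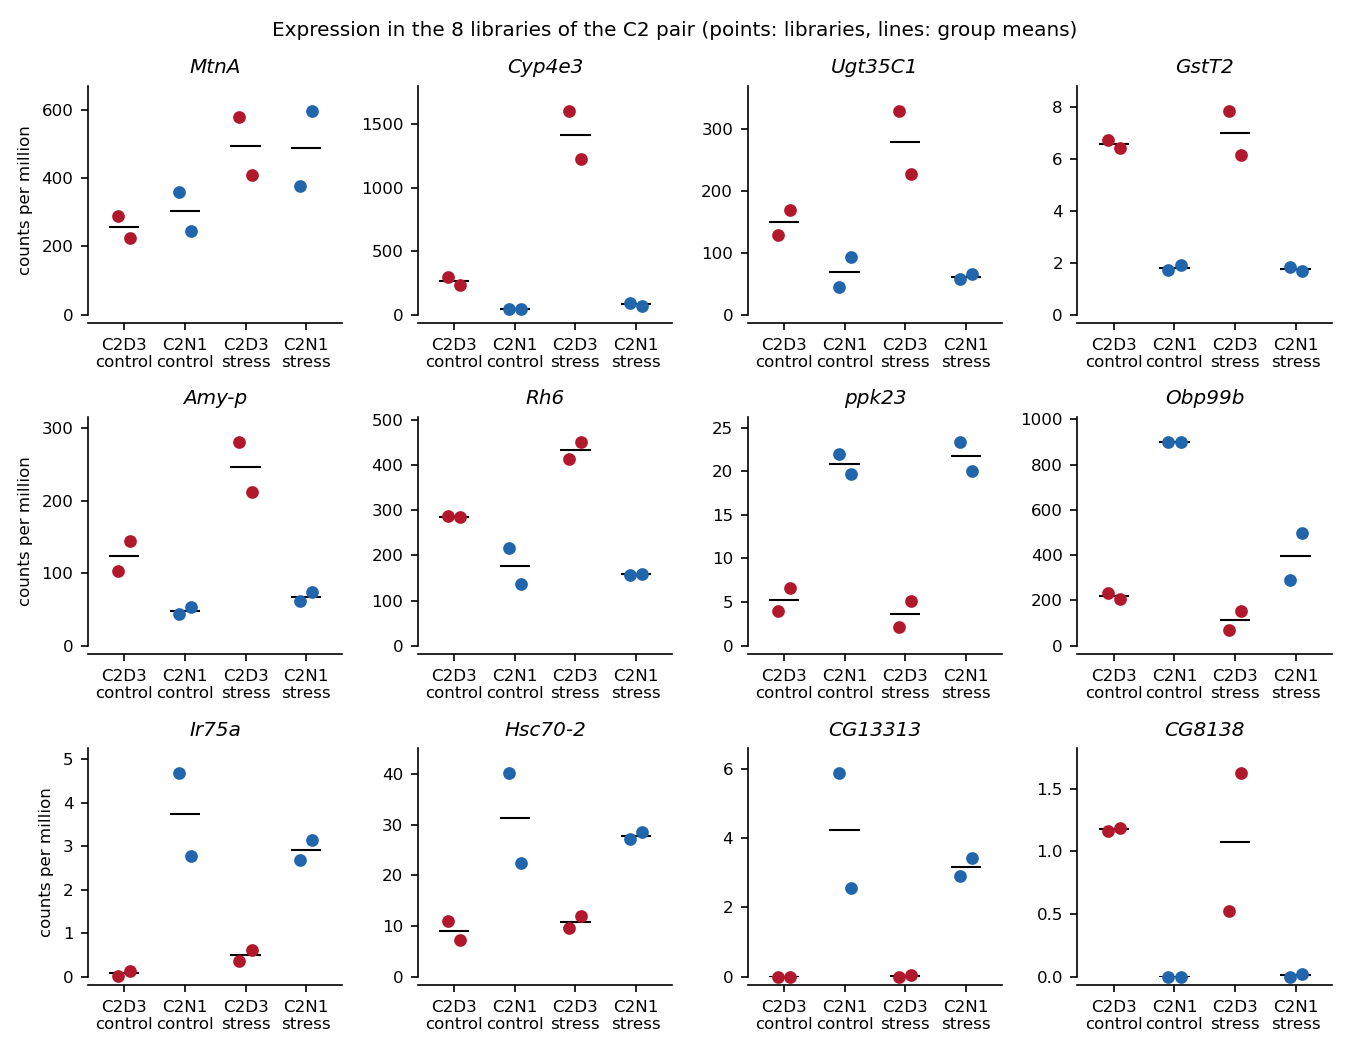
CPM (vertical axis, linear, from 0) of 12 genes in the 8 libraries, by line and treatment (horizontal axis). Points are libraries, red for C2D3 and blue for C2N1, and lines are means of 2 libraries. MtnA overlapped between the lines, while the other 11 genes were separated by line in both treatments.

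Few genes were called between the lines, a count that depends on the threshold and does not measure how many genes differ. In edgeR 954 of the 10778 tested genes (8.85%) had an unadjusted p under 0.05 for the line effect. With a threshold of 0.05 on the Benjamini-Hochberg adjusted p, 91 genes were called, which is 0.844% of the tested genes: 58 were higher (0.538%) and 33 lower (0.306%) in C2D3. Of these, 59 differed more than 2-fold, 34 higher and 25 lower. Their median absolute difference was 1.36 on the log2 scale, against 0.107 over all tested genes. In all 91 the C2D3 libraries lay apart from the C2N1 libraries within both treatments, a separation that 990 genes (9.19% of those tested) showed. DESeq2 called 262 genes, 176 higher and 86 lower, among them all 91. The count fell most without C2N1 stress replicate 1 (32 genes), C2N1 stress replicate 2 (34) or C2D3 stress replicate 1 (35). It was 43 and 60 without C2D3 control replicates 2 and 1 and 50 without C2D3 stress replicate 2, and was 82 or 93 without either C2N1 control.

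Some genes were close to absent in 1 line. *CG13313* (3L:8958857-8960921) had 2 counts in the 4 C2D3 libraries together and 605 in those of C2N1, where it stood at 2.57 to 5.89 CPM. Against a floor of 3 counts over the line, it was at least 188-fold lower in C2D3 (adjusted p = 0.000581). *CG8138* (3R:13181304-13182154) was the mirror image, with 170 counts in C2D3 (0.526 to 1.63 CPM) and 1 count in C2N1, which makes it at least 58.7-fold higher in C2D3 (adjusted p = 0.00327). *CG31683* reached 6.14 and 9.68 CPM in the C2D3 controls and 14.7 and 13 CPM under stress, and lay between 0.0835 and 0.348 CPM in the 4 C2N1 libraries. The line effect was 6.04 ± 0.41 (adjusted p = 0.000173), and the gene overlaps *CG31688* on the other strand, whose reads cannot be told apart without knowing how strand was counted. *CG31373* (4.98 ± 0.32, adjusted p = 0.000173) and *CG9616* (4.44 ± 0.29, adjusted p = 0.000173) did not pass 0.147 and 0.455 CPM in any C2N1 library, and stood at 1.09 to 5.31 and at 2.6 to 10.3 CPM in C2D3. Symbols of the CG or CR series made up 42 of the 91 called genes (46.2%) and 36.8% of the tested genes.

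The enzymes that oxidise, conjugate and clear foreign compounds and that edgeR called were all higher in C2D3. The largest of these differences was that of *Cyp4e3* (2L:9747839-9750071, minus strand), a cytochrome P450. It stood at 299.7 and 234 CPM in the C2D3 controls and at 46 and 46.8 CPM in the C2N1 controls. Under stress it reached 1607 and 1229 CPM in C2D3 and 91.9 and 69.8 CPM in C2N1. Every C2D3 library exceeded every C2N1 library, including C2D3 controls over C2N1 stress libraries. The line effect was 10.1-fold, or 3.33 ± 0.33 on the log2 scale (adjusted p = 0.00202).

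The UDP-glycosyltransferase *Ugt35C1*, of a family that couples sugars to small lipophilic molecules, stood at 129 and 169 CPM in the C2D3 controls and at 44.4 and 93.7 CPM in the C2N1 controls. Under stress it stood at 330.5 and 227 CPM in C2D3 and at 57 and 65.8 CPM in C2N1. The C2D3 libraries were the higher ones in both treatments (1.65 ± 0.29, adjusted p = 0.0404), and the call was lost without any 1 of 6 libraries (all but C2D3 control replicate 1 and C2N1 control replicate 2). *Cyp12d1-p*, a mitochondrial P450, reached 434 and 421 CPM in the stressed C2D3 libraries and 139 and 166 CPM in the stressed C2N1 libraries. Its controls lay at 22.7 and 27.9 CPM in C2D3 and 17.7 and 15.1 CPM in C2N1 (1.07 ± 0.18, adjusted p = 0.0342). Its near-identical neighbour *Cyp12d1-d* may share its reads, and the call was lost without any 1 of 5 libraries (C2D3 control replicate 2 and each stress library). Of 80 tested P450 genes edgeR called these 2 (2.5%, against 0.844% of all tested genes), and of 26 UDP-glycosyltransferases 1 (3.85%). DESeq2 called 5 P450 genes in both directions: *Cyp4e3*, *Cyp12d1-p* and *Cyp308a1* higher, and *Cyp4d1* and *Cyp9f3* lower, the last 3 named after their values were seen.

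Glutathione S-transferases, which couple glutathione to electrophiles and oxidised lipids, lay above 0 in 27 of 33 tested genes. The median of the family was 0.356, against 0.00642 over all tested genes, and it was 0.374 in the control and 0.32 in the stress contrast. In 13 of the 33 genes (39.4%) the C2D3 libraries were all above the C2N1 libraries within both treatments, against 5.29% of all tested genes, and in 1 gene (3.03%) they were all below, against 3.9%. In edgeR 17 of them had an unadjusted p under 0.05, against 954 of all 10778, and 2 passed the threshold (6.06%, against 0.844%). *GstT2*, of the theta class, stood at 6.73 and 6.43 CPM in the controls and at 7.86 and 6.16 CPM in the stress libraries of C2D3. In C2N1 it stood at 1.71 and 1.9 CPM in the controls and at 1.82 and 1.67 CPM under stress. The lines were far apart with next to no effect of the treatment (3.82-fold, 1.94 ± 0.14, adjusted p = 0.000302). *GstT2* overlaps *CG12926* on the other strand. *GstD9*, of the delta class, was at 38.8 and 39.9 against 24.1 and 30.7 CPM in controls and at 268 and 228 against 153 and 169 CPM under stress (C2D3 against C2N1). The difference was small beside the treatment (0.57 ± 0.10, adjusted p = 0.0414), was lost without any 1 of 7 libraries (all but C2N1 control replicate 2), and the delta genes resemble each other closely enough that reads may be shared. DESeq2 called 7 of the 33, all higher: *GstT2*, *GstD9*, *GstD1*, *GstD2*, *GstE4*, *GstE8* and *GstS1*, the last 5 named after their values were seen. Of 25 tested antioxidant enzymes and their regulators, which include superoxide dismutases, catalase and peroxiredoxins, none was called by edgeR or DESeq2. With 0.844% of all tested genes called by edgeR, no call among 25 does not set this list apart. Their median was 0.0868, against 0.00642 over all tested genes. Above 0 lay 20 of them (80%, against 51.7%), and 3 had an unadjusted p under 0.05 (12%, against 8.85%).

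Both alpha-amylase genes and a maltase gene were called higher in C2D3. *Amy-p*, an alpha-amylase that cleaves starch, stood at 103 and 144 CPM in the C2D3 controls and at 43.2 and 53.5 CPM in the C2N1 controls. Under stress it stood at 282 and 212 CPM in C2D3 and at 61.4 and 73.6 CPM in C2N1. No C2N1 library reached a C2D3 library in either treatment (3.06-fold, 1.61 ± 0.17, adjusted p = 0.00291). Its near-identical neighbour *Amy-d* moved with it (1.95 ± 0.30, adjusted p = 0.0233, lost without C2D3 control replicate 2, C2D3 stress replicate 1 or either C2N1 stress library), and reads of the 2 copies may be shared. The maltase *Mal-A1* was low in both lines, at 1.92 to 4.32 CPM in C2D3 and 0.696 to 1.75 CPM in C2N1 (1.36 ± 0.25, adjusted p = 0.0472, lost in all leave-one-out fits except that without C2D3 stress replicate 1). These were the 3 genes called among 33 tested of feeding state and fat metabolism (9.09%, against 0.844% of all tested genes), of which 66.7% lay above 0, against 51.7% of all tested genes (medians 0.194 and 0.00642). Amylase is also a midgut marker. The 12 midgut markers summed to 103 to 283 CPM in C2D3 and 43.6 to 75.1 in C2N1, and without *Amy-p* the other 11 summed to 0.0485 to 1.29 CPM in C2D3 and 0.214 to 1.56 in C2N1. In the list of digestive peptidases 7 of 8 tested genes lay above 0 (median 0.4), with none called by edgeR and 2 at an unadjusted p under 0.05. DESeq2 called 1 of them higher, the Jonah protease gene *Jon25Biii*, named after its values were seen, at 0.218 to 0.894 CPM in C2D3 and at up to 0.132 CPM in C2N1. In whole heads, fewer cells of a type and less RNA per cell cannot be told apart, here and for the sensory genes below.

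Sensory genes differed in both directions. *ppk23*, a sodium channel subunit of pheromone-sensing gustatory neurons, stood at 3.94 and 6.57 CPM in the controls and at 2.16 and 5.07 CPM in the stress libraries of C2D3. In C2N1 it stood at 22 and 19.7 CPM in the controls and at 23.4 and 20.1 CPM under stress. C2D3 was the lower line in all libraries (4.86-fold, -2.28 ± 0.27, adjusted p = 0.00502). The neighbouring ionotropic receptor genes *Ir75a* and *Ir75b*, which serve acid sensing in olfactory neurons of the antenna, were both lower in C2D3. *Ir75a* lay at 0.0253 to 0.622 CPM in C2D3 and at 2.68 to 4.7 CPM in C2N1 (-3.69 ± 0.56, adjusted p = 0.0224, lost without C2D3 control replicate 2, C2D3 stress replicate 1 or C2N1 stress replicate 2). *Ir75b* lay at 0.0253 to 0.8 CPM in C2D3 and at 1.8 to 2.77 CPM in C2N1 (-3.20 ± 0.60, adjusted p = 0.0487, lost without any library but C2D3 stress replicate 2). They were the 2 that edgeR called of 73 tested chemoreceptors (2.74%, against 0.844% of all tested genes), whose median was 0.119. DESeq2 also called *Ir68a* and *Ir76b*, both higher in C2D3 and named after their values were seen.

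*Obp99b*, an odorant-binding protein gene, stood at 232 and 205 CPM in the C2D3 controls and at 902 and 901 CPM in the C2N1 controls. Under stress it stood at 70.9 and 154 CPM in C2D3 and at 290.5 and 499.8 CPM in C2N1. In each line the stress libraries were below the controls, and C2D3 was below C2N1 in either treatment (3.81-fold lower, -1.93 ± 0.25, adjusted p = 0.00937). *Obp19b* was the other call among 31 odorant-binding proteins and was higher in C2D3 (0.69 ± 0.11, adjusted p = 0.0233, lost without C2D3 control replicate 2, C2D3 stress replicate 1 or either C2N1 stress library). These 2 calls are 6.45% of the list, against 0.844% of all tested genes. In edgeR 11 of the 31 (35.5%, against 8.85%) had an unadjusted p under 0.05. DESeq2 also called *Obp83g* and *Obp99a*, both higher in C2D3 and named after their values were seen. The 5 antenna and palp markers, none of them called, summed to 790.0 to 1680 CPM in C2D3 and to 446 to 1340 CPM in C2N1. *Obp19d* made up nearly all of that sum (441 to 1660 CPM), the other 4 lay at 0.0296 to 10.7 CPM, and their part in these differences was not tested. *Rh6*, the green-sensitive rhodopsin of a class of R8 photoreceptors, stood at 287 and 285 CPM in the C2D3 controls, 413 and 452 CPM in the C2D3 stress libraries, 216 and 138 CPM in the C2N1 controls and 156 and 159.8 CPM in the C2N1 stress libraries. C2D3 was above C2N1 throughout (2.1-fold, 1.07 ± 0.18, adjusted p = 0.0375), although the call was lost without any library but C2N1 control replicate 1. It was the 1 called of 31 phototransduction genes (3.23%, against 0.844% of all tested genes), of which 12 lay above 0 (38.7%, against 51.7% of all tested genes).

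Genes of other kinds were called as well. *bib*, an aquaporin-family membrane protein that acts with Notch in neural fate choice, had some of the tightest values of all, 6.84 to 7.57 CPM in the 4 C2D3 libraries and 18.7 to 21 CPM in the 4 C2N1 libraries (-1.49 ± 0.09, adjusted p = 0.000173). It overlaps the noncoding *lncRNA:CR13130* on the other strand. *Task6*, a potassium leak channel, lay at 125 to 188 CPM in C2D3 and 65.9 to 71 CPM in C2N1 (1.09 ± 0.13, adjusted p = 0.00502). *PGRP-LF*, which dampens the IMD immune pathway, was lower in C2D3, with 9.53 to 14.1 CPM against 22.3 to 31.4 CPM (-1.20 ± 0.15, adjusted p = 0.00755). It overlaps *UGP* on the other strand. *BomBc3*, a Bomanin of the Toll response, was higher in C2D3, with 18 to 43.4 CPM against 12 to 22.2 CPM (0.88 ± 0.14, adjusted p = 0.0263), a call lost without any library but C2D3 stress replicate 2 and C2N1 control replicate 1. *PGRP-LF* and *BomBc3* were the 2 edgeR calls of 22 peptidoglycan recognition and Bomanin genes (9.09%, against 0.844% of all tested genes). The cognate heat shock gene *Hsc70-2* was lower, with 7.28 to 11.9 CPM against 22.5 to 40.3 CPM (-1.58 ± 0.21, adjusted p = 0.00975; adjusted p = 0.057 without C2D3 stress replicate 1). It was the 1 edgeR call of 22 heat shock genes (4.55%). DESeq2 also called *PGRP-SB1* and *Hsp70Aa* in these lists, both higher in C2D3 and named after their values were seen. *Spn43Ad*, a serpin, was higher (2.03 ± 0.22, adjusted p = 0.00327), and *Root*, which builds the ciliary rootlet of sensory neurons, was lower (-1.94 ± 0.35, adjusted p = 0.0442, lost without any library but C2D3 control replicate 1 and C2N1 control replicate 2). *Spn43Ad* overlaps *pk*, and *Root* overlaps *CG13607* and *GatB*, each on the other strand.

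Over all 24 gene lists that were examined, 16 of 833 tested members were called (1.92%, against 0.844% of all tested genes), from 9 lists, and 75 of the 91 called genes were on no list. The 16 fell to 7 without C2D3 control replicate 2 or C2N1 stress replicate 1 and to 6 without C2D3 stress replicate 1 or C2N1 stress replicate 2. No member was called among 15 antimicrobial peptides, 5 Turandot genes, 21 genes of copper and zinc handling, 13 clock genes, 38 neuropeptide precursors, 59 cuticle proteins, 23 genes of the small RNA machinery or 87 cytosolic ribosomal proteins. In the 15 lists in which edgeR called nothing, 37 of 482 members had an unadjusted p under 0.05 (7.68%, against 8.85% of all tested genes), and DESeq2 called 7. Of the 37, 16 were cuticle proteins (27.1% of the 59), of which 15.3% had all C2D3 libraries above the C2N1 libraries within both treatments, against 5.29% of all tested genes. The DESeq2 calls included *Ilp5* and, of 25 tested eye pigment genes, *w* and *se*, both lower in C2D3 and all 3 named after their values were seen. The ribosomal proteins lay at a median of 0.0639, with 11 of 87 above 0 in the control contrast (median -0.159) and 87 of 87 in the stress contrast (median 0.274), while all tested genes had medians of -0.00565 and 0.0198. Each contrast rests on 2 libraries per line, so the 87 signs are not separate observations. None of the 87 had an unadjusted p under 0.05 for the line effect in edgeR. *RpS29* stood at 826 and 824 CPM in the C2D3 controls and at 986 and 719 CPM in the C2N1 controls. Its lines overlapped under stress too.

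The line difference was also tested without and with MSB. Tested in the controls alone, 25 genes were called (0.232%), 11 higher and 14 lower, and in the stress libraries alone 22 (0.204%), 14 higher and 8 lower. Of these, 14 genes were called in both treatments, which is 56% of the control and 63.6% of the stress calls. The sign was the same in the other treatment in 24 of the 25 and in 22 of the 22. It was also the same in all 91 genes of the additive fit. That fit used both treatments and so favoured genes of equal sign, and the 91 are no separate evidence of agreement. No gene passed the test of the interaction in edgeR (0% called, 297 genes at an unadjusted p under 0.05), with a smallest adjusted p of 0.444, and DESeq2 called 7. Without C2N1 control replicate 2, the edgeR interaction called 6 genes and the control contrast 77. The control count was 14 and 12 without C2D3 control replicates 1 and 2. The stress count was 2 and 6 without C2D3 stress replicates 1 and 2 and 5 and 1 without C2N1 stress replicates 1 and 2.

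The genes nearest to an interaction, none of which passed, were these. *CG6293* had 42 and 56.5 CPM in the C2D3 controls against 15 and 20.1 CPM in the C2N1 controls, and 7.62 and 7.14 CPM against 10.6 and 11.9 CPM under stress (interaction -2.10 ± 0.28, adjusted p = 0.444). *CG42329* had the same form, with 64.6 and 57.3 against 24.5 and 33.8 CPM in controls and 31.8 and 29.4 against 44.3 and 41.8 CPM under stress (-1.56 ± 0.23, adjusted p = 0.444). In both, the order of the lines turned with the treatment. *Whamy*, an actin-nucleating relative of WASp, had 2.63 and 2.45 CPM against 1.61 and 1.9 CPM in controls and 12.7 and 11.4 CPM against 2.35 and 2.21 CPM under stress (1.87 ± 0.28, adjusted p = 0.444). *CG18473* had 0.582 CPM in both C2D3 controls, 5.28 and 7.79 CPM in the C2N1 controls, 8.96 and 7.02 CPM in the C2D3 stress libraries and 21.3 and 20.1 CPM in the C2N1 stress libraries (2.11 ± 0.34, adjusted p = 0.56). For *Cyp4e3* the line difference was 2.52 in controls and 4.13 under stress, an interaction of 1.61 ± 0.29 that did not pass (adjusted p = 1).

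**Figure D2:**
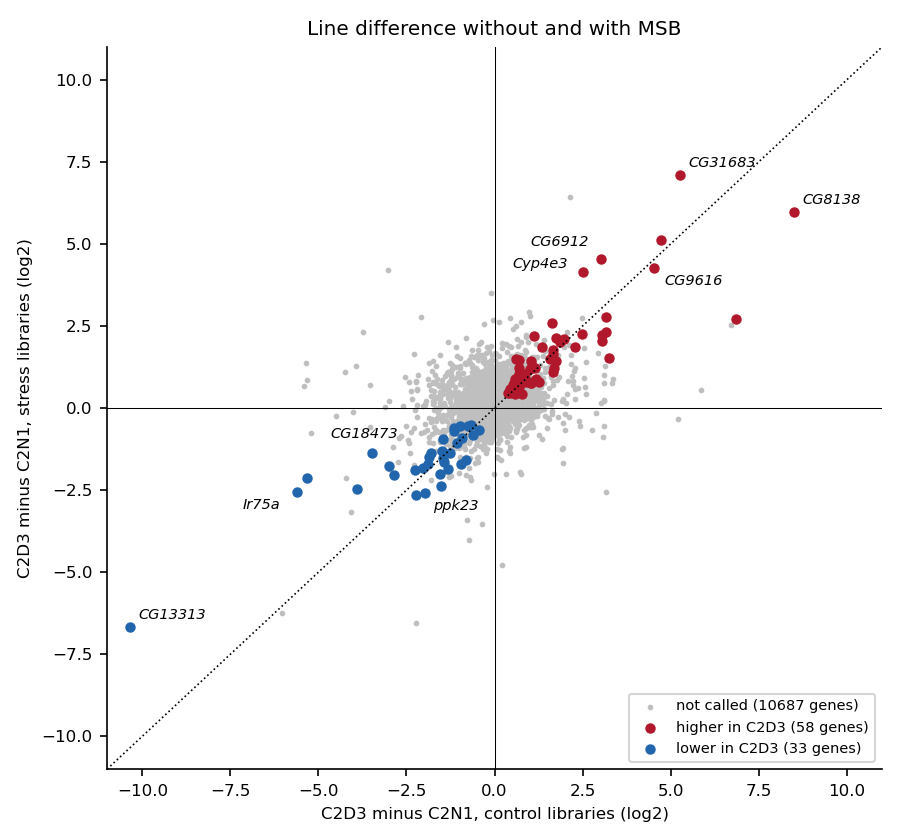
Line difference C2D3 minus C2N1 (log2) in control libraries (horizontal) and stress libraries (vertical) for 10778 tested genes. Points in red (58) and blue (33) were called higher and lower in the additive fit. All 91 have the same sign on both axes, which their choice by a fit over both treatments favours. The dotted line marks equal differences. The places of CG13313 and CG8138, with 2 and 1 counts in 1 line, are fitted values and no measure of size.

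The called genes were spread over the genome but not evenly. The third chromosome held most of them, with 40 of 2693 tested genes called on arm 3R (1.49%) and 20 of 2082 on 3L (0.961%). Arm 2L had 15 of 1917 (0.782%), 2R 10 of 2232 (0.448%), X 6 of 1761 (0.341%) and the fourth chromosome 0 of 78 (3 at an unadjusted p under 0.05 and 0 in DESeq2). *MtnA* lies on 3R. Of the tested genes within 1 Mb of it, 7 of 218 were called (3.21%), and on the remainder of 3R 33 of 2465 (1.34%). Within 0.1 Mb, 3 of 40 were called (7.5%): *CG9444* lower (-1.54 ± 0.14, adjusted p = 0.000941), and *p24-2* (0.90 ± 0.16, adjusted p = 0.0383) and *dmt* (0.60 ± 0.11, adjusted p = 0.0414) higher, the last 2 named after their values were seen. The calls of *p24-2* and *dmt* were each lost without any 1 of 7 libraries, all but C2D3 stress replicate 1 for *p24-2* and C2N1 control replicate 2 for *dmt*. *CG9444* overlaps *nmdyn-D7* on the other strand. At 2 to 5 Mb, 15 of 526 were called (2.85%), and at 5 to 10 Mb 4 of 522 (0.766%). Genes without a coordinate in the annotation were left out of these distances.

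**Figure D3:**
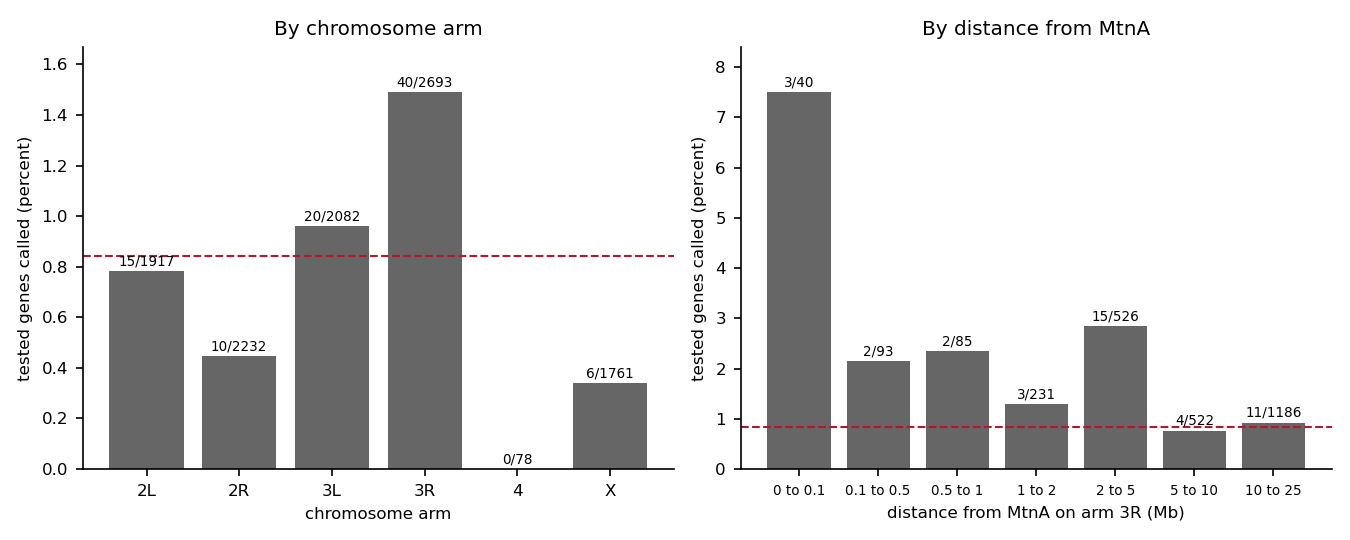
Percent of tested genes called in the additive fit (vertical axis) by chromosome arm (left) and by distance from MtnA on arm 3R in Mb (right), with called over tested genes above each bar. The dashed line is the share over all tested genes, 0.844%. Arm 3R had the highest share of the arms, and the 3 called of 40 genes within 0.1 Mb of MtnA the highest of the distance classes.

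None of the 5 tested genes on either side of *MtnA* was called in the edgeR fit of the 8 libraries, and 2 of the 10, *Whamy* and *topi*, had an unadjusted p under 0.05 and were called by DESeq2. Both were also called for C2 in the edgeR fit over 3 nearly isogenic pairs described below (1.47 ± 0.15, adjusted p = 2.93e-05 for *Whamy*, and 1.57 ± 0.34, adjusted p = 0.0234 for *topi*). *CG8500*, 0.283 kb away, lay at 128 to 156 CPM in C2D3 and 126 to 168 CPM in C2N1 (-0.03 ± 0.10). *CG12947*, 0.353 kb away, had 0.17 ± 0.13. *Whamy*, 8.99 kb away, was the only 1 of the 10 whose libraries separated the lines in both treatments (1.51 ± 0.34, adjusted p = 0.111), and its stress contrast passed on its own (2.40, adjusted p = 0.00301). *topi*, a testis gene 5.46 kb away, had 1.67 ± 0.43 (adjusted p = 0.173) at no more than 2.55 CPM.

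**Figure D4:**
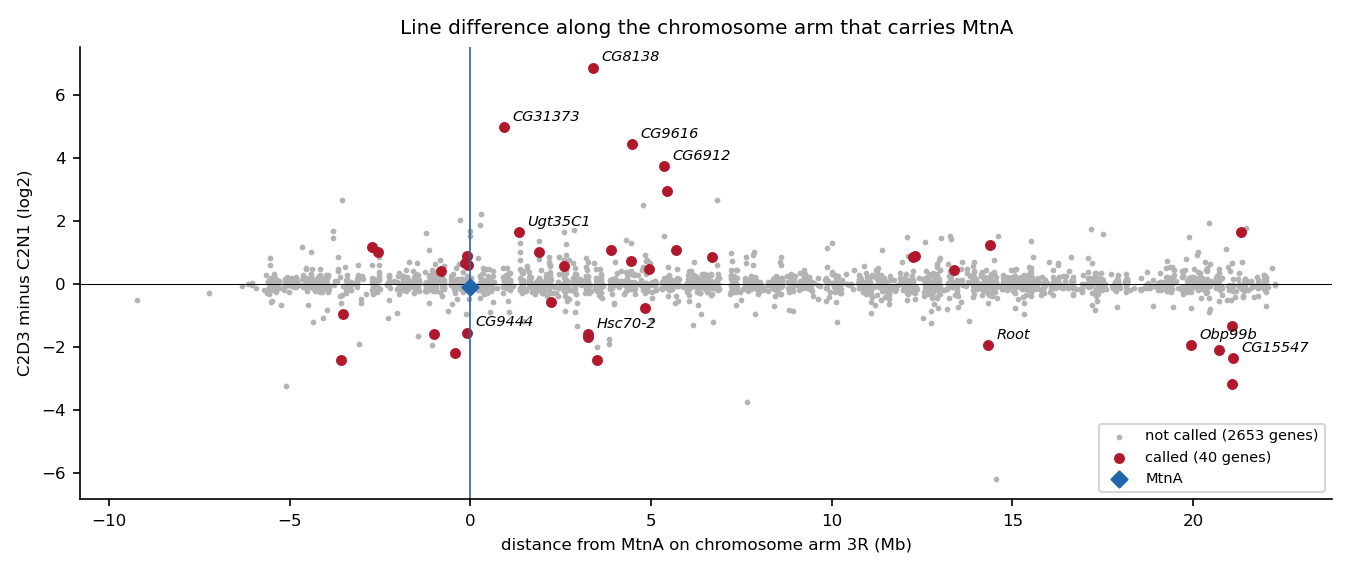
Line difference C2D3 minus C2N1 (log2, vertical axis) of the tested genes on arm 3R by distance from MtnA in Mb (horizontal axis). Red points are the 40 called genes and the blue diamond is MtnA, at -0.11. Called genes lie on both sides of MtnA and in both directions, with 15 of them at 2 to 5 Mb.

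Called genes often had a called neighbour. Of the 91, 36 (39.6%) lay within 100 kb of another called gene, and 15% of all tested genes lay that close to a called gene. Of 122 windows of 1 Mb with at least 10 tested genes, 74 had no called gene and 9 had 3 or more. The highest share was 5 of 83 (6.02%) at 13 to 14 Mb of 3R, the window of *Hsc70-2*, *CG8138* and *Task6*. Without C2D3 stress replicate 1, C2N1 stress replicate 1 or C2N1 stress replicate 2, the highest share of any window was 2.67%, 3.45% or 3.41%. Neighbours could be close and alike: *CG15546* (-1.32 ± 0.10, adjusted p = 0.000445) and *CG15547* (-2.35 ± 0.32, adjusted p = 0.0135; adjusted p = 0.0699 without C2D3 stress replicate 1) on 3R were both lower, as was *CG15545* beside them (-3.16 ± 0.40, adjusted p = 0.00868). *CG15547* overlaps *Sap-r* on the same strand. *Hsc70-2* and the adjacent *CG31157* (-1.68 ± 0.29, adjusted p = 0.0389, lost without either C2D3 control, either C2D3 stress or either C2N1 stress library) were both lower too. *CG13313* stood next to *ValRS-m*, a mitochondrial valyl-tRNA synthetase (-0.71 ± 0.11, adjusted p = 0.0216), and *CG5653* (-1.07 ± 0.17, adjusted p = 0.0288), both also lower in C2D3. The calls of these 2 were lost without any 1 stress library, and also without C2D3 control replicate 2 for *ValRS-m* and C2N1 control replicate 2 for *CG5653*. Other called neighbours within 100 kb went in opposite directions. *CG9444* was lower beside *p24-2* and *dmt*, which were higher. *Adgf-A* was higher (0.59 ± 0.10, adjusted p = 0.029) beside *Ir75a* and *Ir75b*, which were lower. The call of *Adgf-A* was lost without any 1 stress library or C2D3 control replicate 2. *CG15545*, *ValRS-m* and *CG5653* were named after their values were seen.

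The other 2 nearly isogenic pairs, M12 (M12D3 and M12N3) and M9 (M9D3 and M9N1) from Munich, allowed a test of whether the line effect differed between pairs. Both pairs were treated in the same way, and 1 fit held 23 libraries of the 3 pairs. M9N1 stress replicate 1 was left out, since it correlated with its replicate at r = 0.806, against at least 0.985 in all other pairs of replicates, and with the 22 libraries of other groups at 0.742 to 0.805, against 0.939 to 0.984 for its replicate. The line effect of C2 differed from that of M12 in 196 genes of 11678 tested (1.68%), 119 with a larger and 77 with a smaller value in C2, and from that of M9 in 369 genes (3.16%), 202 and 167. DESeq2 gave 458 and 576. The line effect itself was called in 216 genes in C2 (1.85%), 178 in M12 (1.52%) and 470 in M9 (4.02%). The count of genes in which C2 differed from M12, 196, was 75 with all 24 libraries and 834 without C2N1 control replicate 2, and it lay between 105 and 129 without any 1 of C2D3 stress replicate 1, C2N1 control replicate 1, C2N1 stress replicate 1, M12D3 control replicates 1 and 2, M12D3 stress replicate 1 and M12N3 control replicates 1 and 2. The count of differences from M9, 369, became 3531 when M9N1 stress replicate 1 was kept in place of replicate 2. Of the 91 genes called in C2, 68 differed from M12, 55 from M9 and 47 from both. The 91 were chosen for their line effect in the same C2 libraries, which favours such differences, so these counts do not test whether the effects belong to C2.

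Some of the 91 genes were also called in another pair, in either direction. In the fit over 3 pairs 11 of them were called in M12 (12.1%, against 1.52% of all tested genes), 4 in the same direction as in C2, and 17 in M9 (18.7%, against 4.02%), 9 in the same direction. The line effect had the same sign in all 3 pairs in 26 of the 91. Shared directions were not counted over all tested genes, so these counts of direction have no share beside them and show nothing particular to the 91. *dmt*, called dalmatian and needed for sister chromatid cohesion, was higher in the deletion line of each pair, by 0.60 ± 0.08 in C2, 0.39 ± 0.08 in M12 and 0.72 ± 0.09 in M9 (adjusted p = 0.000686, 0.0309 and 0.000189). *Whamy*, which is not among the 91, was also higher in each, by 1.47 ± 0.15 in C2, 2.03 ± 0.17 in M12 and 0.92 ± 0.17 in M9 (adjusted p = 2.93e-05, 6.06e-06 and 0.00473). Among the 10778 genes tested in the 8 libraries, the fit over 3 pairs called 7 in all 3 pairs. Of these 7, *dmt* and *Whamy* alone had the same direction throughout. *MtnA* was called in none of the 3 (-0.11 in C2, 0.26 in M12 and 0.18 in M9, with adjusted p of 0.87, 0.597 and 0.788).

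*Cyp4e3* was higher in C2D3 by 3.33 ± 0.18 and in the deletion line of M9 by 3.64 ± 0.22, and lower in that of M12 by -0.79 ± 0.16. The C2 effect differed from that of M12 by 4.12 ± 0.24 (adjusted p = 4.7e-08) and from that of M9 by -0.31 ± 0.24 (adjusted p = 0.594). *CG9616* was likewise higher in the deletion lines of C2 (4.40 ± 0.29) and M9 (3.11 ± 0.44), while its value in M12 did not pass (-0.69 ± 0.21, adjusted p = 0.122). *Hsc70-2* was lower in the deletion line of C2 (-1.58 ± 0.34) and of M9 (-2.33 ± 0.36) and higher in that of M12 (3.58 ± 0.49), and its neighbour *CG31157* had -1.68, -2.11 and 4.08 in the same order. *Obp99b* was lower in C2D3 (-1.93 ± 0.28) and higher in the deletion line of M9 (9.78 ± 0.59), a difference of -11.71 ± 0.65 (adjusted p = 9.23e-08). *CG13313*, near 0 in C2D3, was higher in the deletion line of M12 (2.97 ± 0.47), and the effects of the 2 pairs differed (adjusted p = 3.3e-06). *PGRP-LF* and the kinetochore gene *Mis12* were lower in C2D3 and higher in the deletion line of M12, by -1.20 ± 0.14 against 1.04 ± 0.14 and by -1.32 ± 0.13 against 0.89 ± 0.13.

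**Figure D5:**
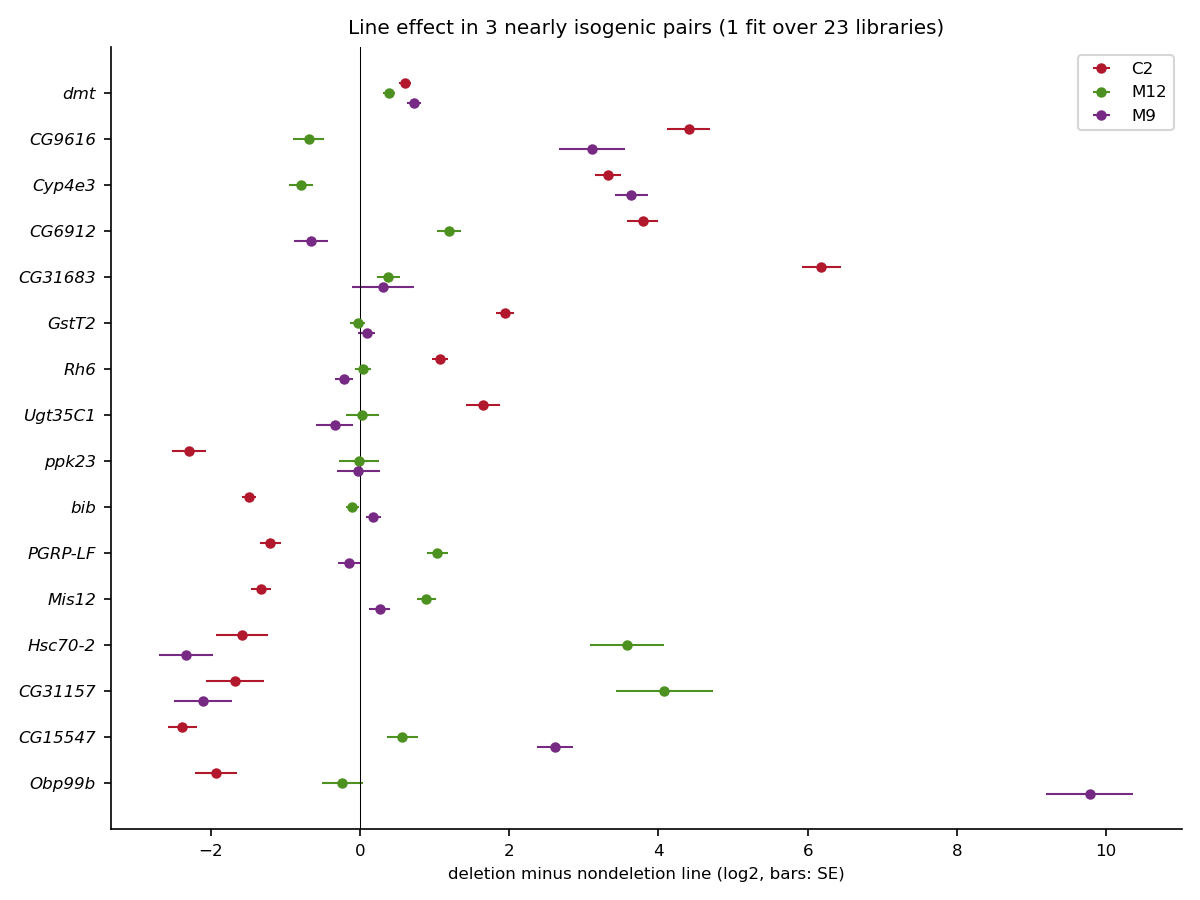
Line effect, deletion minus nondeletion (log2, horizontal axis), in the pairs C2 (red), M12 (green) and M9 (purple) for 16 genes, from 1 fit over 23 libraries. Points are estimates and bars are SE. Only dmt lies above 0 and was called in all 3 pairs among the genes drawn, and Obp99b spans from -1.93 in C2 to 9.78 in M9.

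Other genes called in C2 had small values in the 2 Munich pairs. *GstT2* had -0.03 ± 0.10 in M12 and 0.09 ± 0.11 in M9, and differed from C2 by 1.97 ± 0.16 (adjusted p = 3.16e-06) and by 1.85 ± 0.16 (adjusted p = 5.99e-06). *bib* had -0.11 in M12 and 0.18 in M9, and *ppk23* -0.01 and -0.02, while *Rh6* had 0.04 and -0.22 and *Ugt35C1* 0.03 and -0.34. Each of these 4 differed between C2 and either Munich pair, with an adjusted p of 1.05e-05 and 2.29e-06 for *bib*, 0.00218 and 0.00207 for *ppk23*, 0.00191 and 0.000218 for *Rh6* and 0.0137 and 0.00208 for *Ugt35C1*. *Amy-p* had -0.10 in M12 and 0.31 in M9, and its C2 effect differed from that of M12 (1.71 ± 0.39, adjusted p = 0.0357), while the difference from M9 did not pass (1.30 ± 0.41, adjusted p = 0.11). For *GstD9* the differences did not pass either (0.26 ± 0.26 and 0.17 ± 0.27, adjusted p = 0.702 and 0.825), with the deletion line of M12 at 0.31 and that of M9 at 0.40.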

How the data were processed

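The deposited values were raw whole-number counts of reads per gene, which the authors made from paired-end poly-A reads aligned by NextGenMap 0.5.5 to FlyBase 6.31 transcripts. They used DESeq2 1.28.1 in R 4.0.0 for their own tests. The counting program and its treatment of strand are not given in the sources used here, so overlapping genes and near-identical copies stay uncertain. Of the 91 called genes, 31 overlap another annotated gene, and not all of them are marked above. *Mal-A1*, for example, overlaps *Cyp4e1* on the other strand. The table gives gene IDs and was matched to BDGP6.54 for names and positions (13908 of 13957 by ID, 43 by CG number). The other deposited column, a length per gene from the authors, was not used.

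Tests ran in R 4.3.3 with edgeR 4.0.16 (TMM, filterByExpr with a minimum count of 10, quasi-likelihood F test, two-sided, Benjamini-Hochberg over all tested genes, threshold 0.05). CPM are counts per 1000000 counts of the TMM-scaled library. SE is the log2 difference over the square root of F. The line effect was fitted on 8 libraries with treatment as covariate. Control, stress and interaction contrasts used 1 group per line and treatment. DESeq2 1.42.0 was an alternative, as were RLE factors, other filters, a replicate block, a threshold of 0.01 and leaving out each library. Leaving out each library of the fit over 3 pairs was added after the data were seen. The scripts were tested on simulated data. Named genes followed a rule (metallothioneins, the 12 largest changes in each direction at a mean log2 CPM of at least 1 with the lines apart in both treatments, genes near absent in 1 line, the top genes of windows, interaction, lists and differences between pairs, and the 5 neighbours of *MtnA* on each side). The comparison, the lists and the rule were chosen with earlier results of these data known. Replicate numbers were not used to pair the libraries in the main fits.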

Additional observations from a re-analysis of the deposited data

Results flagged for a closer look

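The line effect of C2 differed from that of another nearly isogenic pair, by the test of the difference in the fit over 3 pairs, in the following genes. They are taken from the named genes alone: those named for their small adjusted p of the difference from either Munich pair, shown for each pair where the difference passed, and those called in C2 that the other pair called in the opposite direction. All values are log2 differences, C2 minus the other pair, with SE.

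Against M12, the value was 5.09 ± 0.37 for *CG9616*, 5.80 ± 0.32 for *CG31683*, 4.12 ± 0.24 for *Cyp4e3* and 2.60 ± 0.26 for *CG6912*. It was -10.52 or less for *CG13313*, with C2 taken at the floor of 3 counts over C2D3 and M12 at its estimate of 2.97. The SE of that estimate, 0.47, is not included, so the bound holds for the C2 side alone. It was -7.59 ± 0.42 for *CG12224*, -5.76 ± 0.75 for *CG31157* and -5.16 ± 0.60 for *Hsc70-2*. It was -2.95 ± 0.28 for *CG15547*, -2.24 ± 0.19 for *PGRP-LF*, -2.21 ± 0.19 for *Mis12* and -1.70 ± 0.39 for *Obp99b*. *CG12224* was not called in C2 by edgeR (0.57, adjusted p = 0.0681) but was by DESeq2 (adjusted p = 0.00207), and it stood 8.16 higher in the deletion line of M12.

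Against M9, the value was 5.88 ± 0.63 for *CG31683*, 4.45 ± 0.31 for *CG6912* and 1.47 ± 0.24 for *Adgf-A*. It was 3.52 ± 0.29 for *scpr-C*, 1.60 ± 0.23 for *CG12224* and 1.28 ± 0.09 for *CG5455*. It was -11.71 ± 0.65 for *Obp99b*, -4.99 ± 0.32 for *CG15547*, -4.04 ± 0.26 for *lbl*, -1.86 ± 0.18 for *CG15546* and -1.59 ± 0.19 for *Mis12*. For *CG13313* it was -8.40 or less, with C2 at the same floor and M9 at its estimate of 0.84, whose SE of 0.35 is not included. *scpr-C*, *lbl* and *CG5455* were not called in C2 by edgeR (0.38, 0.27 and -0.07).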

How the results depend on the processing

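With 2 libraries per group, the counts of calls depended on the tool, the threshold and single libraries more than the values of the named genes did. The additive count of 91 became 262 in DESeq2, 28 at an adjusted p of 0.01 and 216 in the fit over 3 pairs, and lay between 32 and 93 when 1 library was left out. The control count of 25 became 91, 8 at 0.01 and 49 without a filter, and 12 to 77 with 1 library left out. The stress count of 22 became 107, 7 and 48, and 1 to 33. The interaction count of 0 became 7 in DESeq2 and 0 to 6 with 1 library left out. List members called, 16, became 41 in DESeq2 and 6 at 0.01, and 6 to 17 with 1 library left out. The highest share in a window, 6.02%, became 9.52% in DESeq2, 3.61% at 0.01, 11.1% in the fit over 3 pairs and 12.9% with windows of 0.5 Mb, and 2.67% to 6.90% with 1 library left out.

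The C2 minus M12 count of 196 became 458 in DESeq2 and 75 with all 24 libraries, and 105 to 834 with 1 library left out. The C2 minus M9 count of 369 became 576 in DESeq2 and 3531 with M9N1 stress replicate 1 in place of replicate 2, and 279 to 504 with 1 library left out. Leaving out libraries here was chosen after seeing the data. The causes were not tested.

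Deviations of libraries with the same replicate number correlated at -0.272 to 0.313 over 6 pairs of groups. The negative values all involved the C2D3 stress libraries, and the other groups correlated at 0.0892 to 0.313. The main fits did not pair libraries by number, and whether libraries of different groups shared a batch was not tested. With the replicate block, the additive count was 67 (61 of the 91 among them), the stress count 13 and the list members called 10, with 214 and 395 genes for C2 minus M12 and C2 minus M9.

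RLE factors gave 86 additive calls, no filter 130 and a filter of 1 CPM 87, which shared 85, 91 and 86 genes with the 91. None of the 49 called genes named in the text or by the rule changed sign in any alternative, and 24 kept their call in all 8 fits without 1 library. Signs turned in genes that were not called, with 1 library left out: *MtnA* from -0.25 to 0.021, *MtnE* from -0.63 to 0.33, *MtnD* from -0.088 to 0.31, *CG9467* from -0.24 to 0.095, *CG8507* from -0.13 to 0.12 and -0.00052 in DESeq2, *CG8500* from -0.11 to 0.060 and *RpS29* from -0.0015 to 0.17. Depth limits genes such as *CG8138*, with 20 to 55 counts in the line that expresses it.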
